A study of Mus musculus with 26 samples.

Results

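The 10 genes described here encode receptors of the ErbB family and their ligands: the receptors Egfr, Erbb2 and Erbb3, the EGFR ligands Areg, Ereg, Hbegf, Tgfa, Btc and Epgn, and the neuregulin Nrg1. They were taken by name from the 45318 genes of the RNA-seq count files and are described in each of the 9 libraries. The libraries were made from polyA RNA of 4T1 cells, a mouse mammary carcinoma line of BALB/c origin, grown in DMEM with fetal bovine serum and penicillin and streptomycin. The 2 Control libraries were labelled wild type, and the study's controls received a guide RNA against Renilla luciferase. The 3 KO1 and 4 KO2 libraries were labelled MaTAR25-/-. In the KO cells CRISPR/Cas9 with paired guides had removed the start of MaTAR25, a nuclear long noncoding RNA. The study picked its KO lines as single-cell clones, so that each KO group describes 1 clone. Its control lines were single-cell clones as well, so that each comparison with the controls also compares clones. The labels do not say whether the 2 Control libraries came from 1 clone or 2. Nothing in the labels says that the libraries of a group came from separate cultures, and p-values measure only the spread between these libraries. In bulk RNA, fewer cells of a type and less RNA per cell cannot be told apart.

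ErbB receptors are tyrosine kinases of the cell surface that work as dimers. Egfr binds the EGF-like ligands, Erbb3 binds neuregulins but has little kinase activity of its own, and Erbb2 has no known ligand and serves as the preferred partner of the others. The ligands are made as membrane proteins and are released by cutting at the cell surface, after which the dimers signal through the RAS-ERK and PI3K-AKT arms. In the mammary gland Areg is the EGFR ligand best known for its part in duct growth, and ERBB2 is the gene amplified in HER2-positive breast cancer.

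The clearest difference was in Areg (amphiregulin), which was lower in all 7 KO libraries than in both controls, 9.32-fold in KO1 and 1.75-fold in KO2. Epgn (epigen), which lies in the same ligand cluster, also fell in KO1. Areg also differed between the clones in every setting tried, while calls between the clones for Hbegf, Tgfa and Erbb2 held in 6, 8 and 5 of 17 other settings. Erbb3 was lower in 3 of the 4 KO2 libraries but not in KO2 replicate 3.

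Epgn, Ereg, Areg and Btc lie together in a stretch of 376 kb on chromosome 5 (chr5:91027464-91402994, build GRCm38). The promoters of the 2 members called in KO1, Areg and Epgn, are shown with that of Btc, the tested cluster member that was not called there. A gene is called here where its adjusted p over all genes tested is under 0.1. The sequences are those of RefSeq for GRCm38.p6, from 250 bases before to 50 bases after the annotated start, read along the gene's strand, and 6 of the 10 members were matched in that table (Egfr, Erbb2, Areg, Tgfa, Btc and Epgn). Capitals mark matches on either strand to the letters of a CRE (TGACGTCA, the site bound by CREB), a TATA box (TATAAA), a GC box (GGGCGG) or an AP-1 site (TGANTCA).
Areg, chr5:91139349-91139648, plus strand: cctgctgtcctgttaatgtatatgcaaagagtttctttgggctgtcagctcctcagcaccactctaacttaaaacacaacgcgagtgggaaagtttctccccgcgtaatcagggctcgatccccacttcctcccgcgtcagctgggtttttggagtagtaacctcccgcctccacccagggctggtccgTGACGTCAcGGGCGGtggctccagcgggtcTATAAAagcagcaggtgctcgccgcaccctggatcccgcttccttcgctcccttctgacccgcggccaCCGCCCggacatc
Epgn, chr5:91027267-91027566, plus strand: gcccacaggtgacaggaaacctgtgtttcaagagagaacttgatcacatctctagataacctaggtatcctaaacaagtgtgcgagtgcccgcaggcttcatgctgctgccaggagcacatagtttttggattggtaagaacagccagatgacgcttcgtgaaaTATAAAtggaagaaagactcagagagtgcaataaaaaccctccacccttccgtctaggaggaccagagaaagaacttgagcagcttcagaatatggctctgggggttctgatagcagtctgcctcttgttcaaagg
Btc, chr5:91402945-91403244, minus strand: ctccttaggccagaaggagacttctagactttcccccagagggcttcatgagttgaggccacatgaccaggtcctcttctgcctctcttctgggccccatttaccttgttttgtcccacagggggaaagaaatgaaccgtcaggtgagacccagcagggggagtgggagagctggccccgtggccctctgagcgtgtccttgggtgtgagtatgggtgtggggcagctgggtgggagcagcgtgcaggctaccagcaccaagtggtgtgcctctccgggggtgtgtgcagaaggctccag
The Areg promoter held 1 CRE, 61 bases before the start, 1 TATA box, 31 bases before it, and 2 GC boxes, none of which overlapped. The Epgn promoter held 1 TATA box, 86 bases before the start used for its sequence. That start lies downstream of the Epgn gene start at 91027464 that opens the 376 kb stretch. The box lies before both starts and nearer to the gene start at 91027464. The Btc promoter held none of the 4 motifs. Among the 32851 promoters of the same length in the table, 1.79% held a CRE, 13.6% a TATA box, 35.7% a GC box and 7.81% an AP-1 site. Of the other members in the table, Tgfa had 2 GC boxes, Egfr 1 and Erbb2 none of the motifs. A match says only that these letters are present.

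The libraries held 25367211 to 61110585 counts in genes. The targeted gene MaTAR25 (1200007C13Rik) had 35 and 30 counts in the controls, 2, 7 and 0 in KO1, where the 0 allows up to 3 counts, and 11, 1, 9 and 6 in KO2. Levels are given as CPM, counts scaled by library total and TMM factor. All 6 markers of mammary epithelium were detected, and their summed level was 4987 to 5183 CPM in the controls, 6118 to 7973 CPM in KO1 and 2514 to 4763 CPM in KO2. Its members went opposite ways in KO1, where Krt7 and Krt8 were above both controls in every library and Epcam and Cdh1 below both. The sum moved with the groups, and its part in the results was not tested. Of the 5 fibroblast markers, Dcn and Lum had no count in any library and Pdgfra carried nearly all of the summed level, which was 17.7 to 21.8 CPM in the controls, 21.0 to 39.8 CPM in KO1 and 11.7 to 46.9 CPM in KO2. In the leukocyte list, Ptprc stayed at or below 0.905 CPM, and Cd68 carried nearly all of the summed level. The sum of all 5 leukocyte markers was 3.20 to 4.24 CPM in the controls, 11.4 to 28.4 CPM in KO1 and 1.85 to 20.3 CPM in KO2. Cd68 was at 4.19 and 3.17 CPM in the controls and at 11.4, 28.3 and 18.3 CPM in KO1. In KO2 replicates 1 to 4 it was at 3.26, 1.77, 19.4 and 4.11 CPM. KO2 was the least uniform group, with Pearson correlations of log2 levels across genes of 0.960 to 0.979 between its libraries, against 0.987 to 0.991 in KO1 and 0.996 for the controls. KO2 replicate 3 was as close to the KO1 libraries (0.966 to 0.972) as to the other KO2 libraries (0.960 to 0.977), and it stood apart from them in several members. The deposited count files were of 2 kinds by their line ends, and KO2 replicate 3 shared its kind with Control replicate 1 and all KO1 libraries, while Control replicate 2 and the other 3 KO2 libraries had the other kind. Results that rest on KO2 replicate 3 are given with and without it. What the line ends stand for was not tested.

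Levels of different genes were compared per kb of merged exon. In the controls the order was led by Areg, at 73.4 ± 2.09 CPM per kb (SD, n = 2), ahead of Hbegf at 33.4 ± 6.49, with no overlap between them. Erbb3 (17.8 ± 1.51), Tgfa (17.7 ± 2.65) and Erbb2 (16.1 ± 0.384) followed, and neighbours among these 3 overlapped. Btc (2.21 ± 0.0741), Epgn (1.40 ± 0.546), Nrg1 (0.681 ± 0.125) and Egfr (0.336 ± 0.0708) were low and each stood clear of the next. By this measure transcripts of the partner receptors Erbb2 and Erbb3 were far above those of Egfr in the controls.

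In KO1 the order was led by Erbb2 (24.6 ± 2.24 CPM per kb, SD, n = 3), Hbegf (23.7 ± 4.99) and Erbb3 (17.3 ± 5.82), which overlapped with their neighbours, and Areg (7.89 ± 2.33) came after Tgfa (13.6 ± 2.71) without overlap. In KO2 Areg (41.9 ± 3.25, SD, n = 4) and Hbegf (41.3 ± 14.5) led and overlapped. Ereg (epiregulin) was at the end in each group, with 2 counts in KO2 replicate 1 and none in the other 8 libraries, where a count of 0 allows up to 3 counts, or 0.0478 to 0.126 CPM. It was not tested. All other 9 members passed the filter on low counts.

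**Figure D1:**
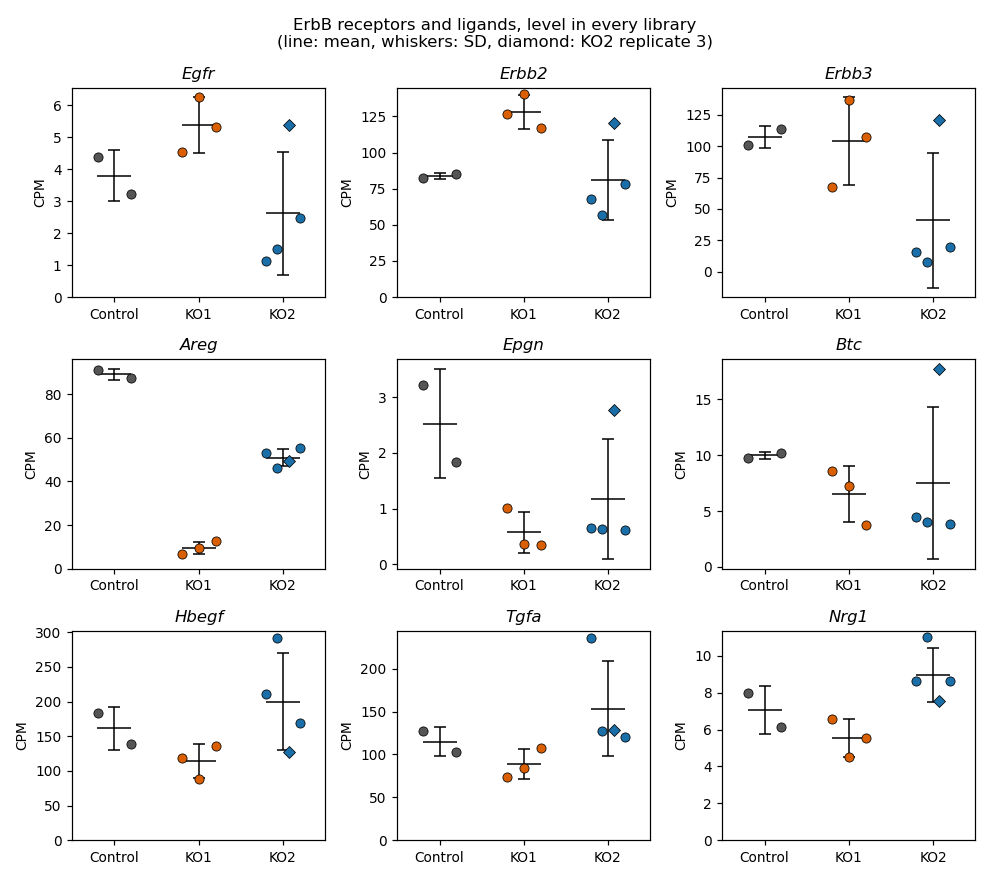
Level of the 9 members with counts in the controls, in CPM with TMM scaling (linear axes), for the 2 Control, 3 KO1 and 4 KO2 libraries. Points are libraries, lines are group means and whiskers are 1 SD. Areg separates all 3 groups, while for Erbb3, Btc and Epgn KO2 replicate 3 (diamond) lies far above the other KO2 libraries.

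Areg (ENSMUSG00000029378.4, chr5:91139599-91148432), Epgn (ENSMUSG00000035020.8) and Btc (ENSMUSG00000082361.3) overlap no other annotated gene. The 3 comparisons with the controls share the same 2 control libraries. The first comparison asked how the level of each gene differed between control cells and KO cells as a whole. Areg stood at 91.0 and 87.4 CPM in the controls, at 6.77, 9.55 and 12.4 CPM in KO1 and at 53.1, 46.2, 49.2 and 55.1 CPM in KO2. All 3 groups were separate, with KO1 lowest. With KO1 and KO2 treated as 1 group, Areg changed by -1.43 on the log2 scale (95% interval -2.97 to 0.12, edgeR quasi-likelihood test, adjusted p = 0.194 by Benjamini-Hochberg), and an exact two-sided permutation test over the 9 libraries gave p = 0.111, where 0.0278 is the smallest p possible. Areg was the 1 member whose KO and control libraries did not overlap, and 34.4% of all genes tested did not overlap in this comparison (16.9% higher, 17.6% lower).

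None of the 9 tested members passed an adjusted p of 0.1 in KO against control by edgeR, where 22.6% of all 15023 genes tested passed (3392 genes). None had an unadjusted p under 0.05 by edgeR, and DESeq2 also called 0 members, with 1 at an unadjusted p under 0.05, beside 28.1% of all genes. When the effect was taken as the mean of the KO1 and KO2 effects from a fit with 3 groups, Areg (log2 change -2.01) and Epgn (-1.61) passed, beside 33.1% of all genes. Without KO2 replicate 3, Epgn was the 1 member called (-2.06, edgeR adjusted p = 0.0167), beside 22.3% of all genes.

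KO1 against control was the comparison with the largest single change among the members. Areg was lower by a log2 change of -3.22 (SE 0.24, 95% interval -3.75 to -2.69, edgeR adjusted p = 0.000577), from a mean of 89.2 ± 2.54 CPM (SD, n = 2) to 9.59 ± 2.84 CPM (SD, n = 3). The call held under all 17 other settings tried, with log2 changes of -3.45 to -3.02. With 2 against 3 libraries an exact permutation test cannot go below p = 0.1, which Areg reached. Areg and Epgn were the 2 of 9 tested members called in KO1, both lower, beside 31.6% of all genes tested called in either direction, 15.9% higher and 15.7% lower.

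Epgn, a low-affinity EGFR ligand, was at 3.23 and 1.83 CPM in the controls and at 1.00, 0.365 and 0.352 CPM in KO1, which is 147 and 60 counts against 63, 11 and 13. The groups did not overlap. Its log2 change was -2.11 (SE 0.76, edgeR adjusted p = 0.0753), and the adjusted p ranged from 0.0160 to 0.348 over the 17 other settings. The call was lost without Control replicate 1, Control replicate 2, KO1 replicate 2 or KO1 replicate 3, and at a threshold of 0.05.

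Btc (betacellulin), a ligand of Egfr and Erbb4, was at 9.75 and 10.2 CPM in the controls and at 8.56, 7.23 and 3.79 CPM in KO1. The libraries did not overlap, but the log2 change of -0.61 (95% interval -2.10 to 0.88) did not pass. Hbegf (heparin-binding EGF-like growth factor) was at 184 and 139 CPM in the controls and at 118, 88.4 and 136 CPM in KO1, also without overlap, and its log2 change of -0.50 (95% interval -1.21 to 0.22) did not pass. Tgfa had a log2 change of -0.38 (95% interval -1.05 to 0.29) with overlapping libraries. Nrg1 was likewise not called, at -0.34 (95% interval -0.995 to 0.308).

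Of the 9 tested members 6 did not overlap between KO1 and control, 2 higher and 4 lower, beside 66.9% of all genes tested, 33.2% higher and 33.7% lower.

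Among the receptors in KO1, Erbb2 (chr11:98412470-98437716) was at 126, 140.5 and 117 CPM against 82.4 and 85.2 CPM in the controls. Every KO1 library was above both controls. The log2 change of 0.61 (SE 0.28, edgeR adjusted p = 0.145) did not pass in the fit with all 3 groups, but it passed when only Control and KO1 were fitted (adjusted p = 0.00656), where 4 members and 54.1% of all genes were called. It also passed without KO2 replicate 2, and without KO2 replicate 3 (adjusted p = 0.0303), where 36.4% of all genes were called. Leaving out KO2 replicate 3 does not touch the libraries compared, and left the log2 change at 0.61 while its SE went from 0.28 to 0.17. Egfr was at 4.53, 6.27 and 5.33 CPM in KO1 against 4.37 and 3.23 CPM, a log2 change of 0.50 (95% interval -0.83 to 1.83). Egfr overlaps the antisense gene Egfros and Erbb2 overlaps Mien1, and without strand their shared reads cannot be told apart. The same holds for Erbb3, Ereg, Tgfa and Nrg1 and the small or noncoding genes annotated across them. Erbb3 overlapped with the controls in KO1, at 67.4, 137 and 108 CPM against 101 and 114 CPM.

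In KO2 against control, Areg was the 1 of 9 tested members called, beside 31.4% of all genes tested in either direction, 16.5% higher and 15.0% lower. It was also the 1 member without overlap, beside 46.9% of all genes (22.8% higher, 24.1% lower). It went from 89.2 ± 2.54 CPM (SD, n = 2) to 50.9 ± 3.95 CPM (SD, n = 4), a log2 change of -0.81 (SE 0.21, 95% interval -1.29 to -0.33, edgeR adjusted p = 0.0251). The exact permutation test gave p = 0.0667, the smallest that 2 against 4 libraries allow. Leaving out Control replicate 1 or Control replicate 2 ended the call, with 0 members then called by edgeR and 1 at an unadjusted p under 0.05 in each case (8.72% and 9.15% of all genes were called), while the change stayed at -0.94 to -0.77 in all 17 other settings.

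Erbb3 (chr10:128567523-128589652), the neuregulin receptor, had a spread in KO2 above its mean, at 40.8 ± 53.5 CPM (SD, n = 4). It stood at 15.4, 7.79, 121 and 19.3 CPM in KO2 replicates 1 to 4, against 101 and 114 CPM in the controls. Replicate 3 lay within the control and KO1 range, and the other 3 lay far below it. With all 4 libraries the log2 change was -1.39 (95% interval -3.30 to 0.51, edgeR adjusted p = 0.265). Without KO2 replicate 3 it was -2.91 (SE 0.38, adjusted p = 0.00213), and the KO2 mean was 14.2 ± 5.84 CPM (SD, n = 3).

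The same library was the highest of KO2 for the other receptors, too. Egfr was at 1.12, 1.52, 5.38 and 2.47 CPM in KO2, and Erbb2 at 67.9, 56.8, 120.4 and 78.5 CPM. For both receptors replicate 3 lay above both controls and the other 3 lay below them. The log2 change of Egfr against control was -0.53 (95% interval -1.76 to 0.70) with replicate 3 and -1.15 (adjusted p = 0.0572, edgeR) without it. For Erbb2 it was -0.05 with replicate 3 and -0.31 (95% interval -0.69 to 0.07) without it, and neither passed.

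Among the ligands in KO2, Btc was at 4.49, 4.00, 17.7 and 3.84 CPM and Epgn at 0.641, 0.632, 2.78 and 0.613 CPM. Replicate 3 was above the controls for Btc and between them for Epgn, and the other 3 libraries were grouped below the controls. Without replicate 3 the log2 changes against control were -1.28 for Btc (adjusted p = 0.0274, edgeR) and -2.01 for Epgn (adjusted p = 0.0222). In all, 5 members were called in KO2 without replicate 3 (Egfr, Erbb3, Areg, Btc and Epgn), all lower, where 35.7% of all genes tested were called and 17.3% were called lower. Areg itself was the same with and without it, at 49.2 CPM in replicate 3 and 46.2 to 55.1 CPM in the others.

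Within each kind of count file, Areg kept its order. Among the files that share the kind of KO2 replicate 3, Areg was at 91.0 CPM in the 1 control, 6.77 to 12.4 CPM in KO1 and 49.2 CPM in KO2 replicate 3. Among the other kind it was at 87.4 CPM in the 1 control and 46.2 to 55.1 CPM in 3 KO2 libraries. Erbb3 was at 101 CPM in the control, 67.4 to 137 CPM in KO1 and 121 CPM in KO2 for the first kind, and at 114 CPM in the control and 7.79 to 19.3 CPM in KO2 for the other. The second kind holds no KO1 library, so KO1 could be set against control within 1 kind only. With the kind of file as a term, Erbb3 was called in KO2 against control (log2 change -1.92, edgeR adjusted p = 0.0604), with Areg and beside 29.3% of all genes.

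Hbegf, Tgfa and Nrg1 were not called in KO2 against control. Their log2 changes were 0.31 (95% interval -0.38 to 1.00), 0.42 (-0.24 to 1.07) and 0.34 (-0.29 to 0.97). Hbegf ranged from 127 to 292 CPM in KO2. Tgfa was at 236 CPM in KO2 replicate 1 and at 121 to 129 CPM in the other 3. Nrg1 was at 7.53 to 11.03 CPM in KO2 and at 7.97 and 6.13 CPM in the controls.

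**Figure D2:**
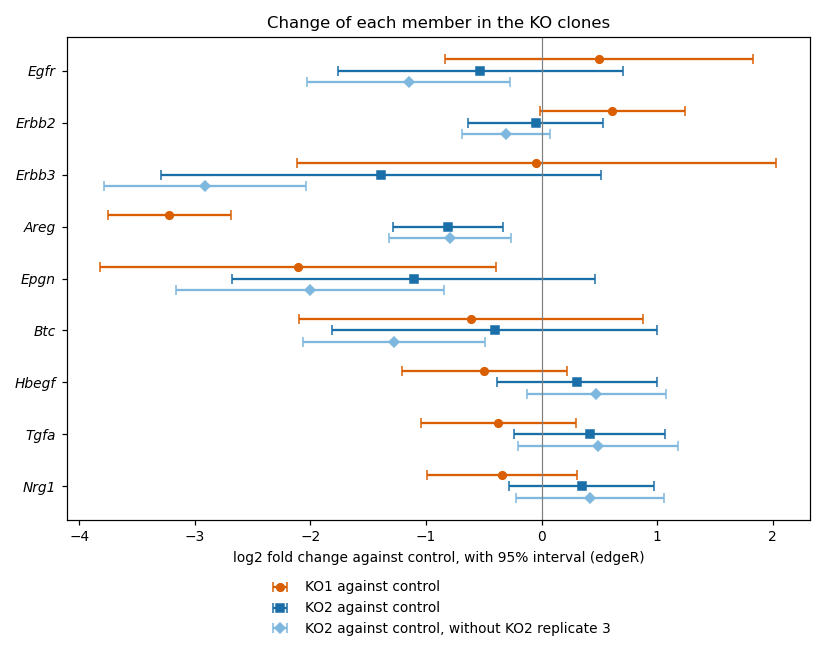
Log2 fold change of each tested member against the 2 controls in KO1 (circles), in KO2 (squares) and in KO2 without replicate 3 (diamonds), with 95% intervals from edgeR. The interval of Areg lies below 0 in all 3, and that of Erbb3 moves from -3.30 to 0.51 with replicate 3 to -3.78 to -2.04 without it.

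KO1 against KO2 tested whether the clones differed from each other. The controls cancel out of the log2 difference, but they enter the shared estimate of the spread and so the p-values. Of the 9 tested members 4 were called, beside 19.6% of all genes tested (9.43% higher and 10.2% lower in KO1). Areg was lower in KO1 by a log2 difference of -2.41 (SE 0.21, edgeR adjusted p = 0.000785), or 5.32-fold, with no overlap between 3 and 4 libraries and the smallest possible exact permutation p of 0.0286. The call held under all 17 other settings.

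The other calls were smaller and less stable. Hbegf was lower in KO1 than in KO2 by a log2 difference of -0.80 (SE 0.27, edgeR adjusted p = 0.0869), with 118, 88.4 and 136 CPM against 210.5, 292, 127 and 169 CPM, which overlap. Tgfa was lower in KO1 by -0.79 (SE 0.26, adjusted p = 0.0763), with 73.3, 84.3 and 108 CPM against 236, 127, 129 and 121 CPM and no overlap. Erbb2 was higher in KO1 by 0.66 (SE 0.23, adjusted p = 0.0905), with KO2 replicate 3, at 120.4 CPM, inside the KO1 range. These 3 calls were lost at a threshold of 0.05, when only the 2 clones were fitted, with the kind of count file as a term, with the replicate number as a block, and without either control library, KO1 replicate 1, KO1 replicate 2 or KO2 replicate 1. Those of Hbegf and Erbb2 were also lost without KO1 replicate 3 or KO2 replicate 2, and that of Erbb2 without KO2 replicate 4.

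Nrg1 missed the threshold between the clones (log2 difference -0.69, edgeR adjusted p = 0.102), although its libraries did not overlap, at 6.60, 4.51 and 5.55 CPM in KO1 and 8.65, 11.03, 7.53 and 8.65 CPM in KO2. Areg, Tgfa and Nrg1 were the 3 of 9 tested members without overlap, all lower in KO1, beside 24.5% of all genes (12.6% higher, 11.9% lower). Without KO2 replicate 3, 7 of 9 members were called: Egfr (1.64), Erbb2 (0.91) and Erbb3 (2.86) higher in KO1, and Areg (-2.43), Hbegf (-0.97), Tgfa (-0.87) and Nrg1 (-0.77) lower, where 27.5% of all genes tested were called. All 3 receptors were thus higher in KO1 than in KO2 in that setting, and 4 of the 6 tested ligands, Nrg1 included, were lower.

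The mixture of EGFR ligand transcripts was described per kb of exon, summed over Areg, Ereg, Hbegf, Tgfa, Btc and Epgn. The sum was 128 ± 11.7 CPM per kb in the controls (SD, n = 2), 46.9 ± 8.02 in KO1 (n = 3) and 109 ± 15.5 in KO2 (n = 4). All KO1 libraries, at 40.9 to 56.1, lay below all others, at 92.2 to 136. Areg made up 57.5% ± 3.62 of the sum in the controls, 16.7% ± 3.50 in KO1 and 39.0% ± 6.60 in KO2. Hbegf made up 25.9% ± 2.70, 50.3% ± 5.62 and 37.3% ± 9.41. Areg was the most abundant ligand in both controls and in 3 of the 4 KO2 libraries, and Hbegf in all 3 KO1 libraries and KO2 replicate 2. These are shares of RNA and say nothing of released protein.

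**Figure D3:**
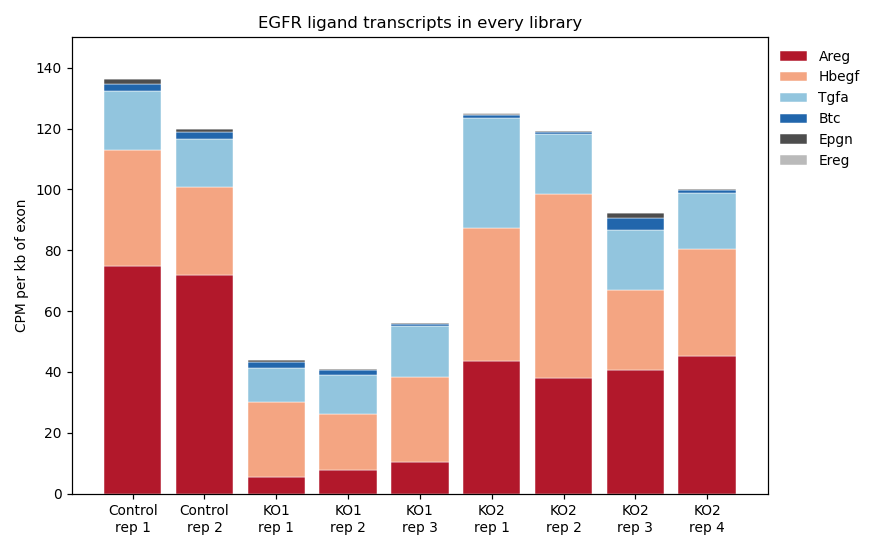
EGFR ligand transcripts in each of the 9 libraries, as stacked bars of CPM per kb of exon for each ligand. The KO1 bars reach 40.9 to 56.1 and the others 92.2 to 136, and the Areg part is the smallest in KO1, at 5.57 to 10.2 CPM per kb.

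The ratio of the receptor partners also separated libraries. Erbb2 over Erbb3, per kb, was 0.943 and 0.865 in the controls and 2.17, 1.18 and 1.26 in KO1. In KO2 it was 5.08, 8.41, 1.15 and 4.70. KO2 replicate 3 had the lowest ratio of its group, below all 3 KO1 libraries.

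Of the family genes outside the list, Erbb4 and Nrg3 had no count in any library. Egf, the founding ligand, was at 1.05 to 1.51 CPM and Nrg4 at 1.26 to 2.06 CPM, and neither was called in any comparison. Nrg2, another neuregulin, was at 2.99 and 1.37 CPM in the controls, 9.80, 2.19 and 4.41 CPM in KO1 and 6.78, 7.37, 4.88 and 8.87 CPM in KO2. It was called in KO2 against control (log2 change 1.67, SE 0.60, edgeR adjusted p = 0.0730), beside 31.4% of all genes (16.5% higher). Its libraries did not overlap there, as for 46.9% of all genes (22.8% higher). Egf was likewise without overlap in KO2 (higher), and Nrg4 in KO1 (lower), where 66.9% of all genes did not overlap. Nrg2 missed the threshold in KO against control (1.53, edgeR adjusted p = 0.103).

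Genes that act around the receptors were described in 7 lists with 79 genes, of which 78 were tested. In KO against control 20 were called, 7 higher and 13 lower, beside 11.9% and 10.7% of all genes tested. In each of the 20 the KO libraries were separate from both controls, as in 34.4% of all genes tested. The 20 were picked by a test on these same libraries, so their separation is no added support. The number fell to 2 without Control replicate 1 and to 4 without Control replicate 2, where 2.95% and 3.61% of all genes were called. In KO1 24 were called (7 higher, 17 lower) and in KO2 31 (12 higher, 19 lower), beside 31.6% and 31.4% of all genes. Leaving out Control replicate 1 or Control replicate 2, in that order, gave 8 and 13 in KO1 and 9 and 10 in KO2. The share of all genes called was then 9.46% and 11.1% in KO1 and 8.72% and 9.15% in KO2. Between the clones 19 were called, beside 19.6% of all genes, and 30 without KO2 replicate 3, beside 27.5%. Without KO1 replicate 1 it was 8 and without KO1 replicate 2 it was 6, beside 9.57% and 5.79% of all genes. These lists were not chosen blind to the data.

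For ligand release, 2 of 5 tested genes were called in KO against control, beside 22.6% of all genes tested. The list median was -0.23 on the log2 scale beside 0.06 for all genes tested. Frmd8, a stabiliser of the iRhom and ADAM17 complex that cuts EGFR ligands, was higher (0.78, edgeR adjusted p = 0.0373). Rhbdf2, which encodes iRhom2, was lower (-0.83, adjusted p = 0.0540). Adam17 itself, the main sheddase of Areg, was at 106 CPM in KO1 and 101 CPM in KO2 against 121 CPM in the controls on average, and was not called in any of the 4 comparisons.

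Of 13 genes for receptor inhibition and turnover, 3 were called in KO against control, all lower. Of all genes tested 22.6% were called and 10.7% were called lower. The list median was -0.42, beside 0.06 for all genes. The 3 called genes were Lrig2 (-1.31, edgeR adjusted p = 0.00873), of a family of transmembrane proteins that includes negative regulators of ErbB receptors, Socs4 (-0.89), which promotes EGFR breakdown, and the phosphatase Ptpn12 (-0.47). Of 14 adaptors, 2 were higher, Eps8 (0.75) and Plcg1 (0.68), and 3 were lower, beside 11.9% and 10.7% of all genes. Their list median was -0.26. The lower genes were the docking protein Gab1 (-1.41), the RAS exchange factor Sos2 (-1.28, adjusted p = 0.00397) and the kinase Src (-0.46).

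In the RAS-ERK cascade, 5 of 13 genes were called in KO against control, beside 22.6% of all genes. The list median was -0.01, beside 0.06 for all genes. Hras (1.35, edgeR adjusted p = 0.0111) and Map2k2 (0.84), which encodes the kinase MEK2, were higher. Nf1 (-0.998, adjusted p = 0.00410), which encodes the RAS inhibitor neurofibromin, and Braf (-0.88) were among the lower genes. In the PI3K-AKT arm 3 of 12 were called, beside the same 22.6%, at a list median of 0.08. Akt1 (1.10, edgeR adjusted p = 0.0191) was higher and Pik3cb (-0.81) was among the lower genes. The 4 genes of the STAT arm had a list median of -0.04, and their edgeR adjusted p in KO against control ranged from 0.238 (Stat5b, log2 change -0.43) to 0.988 (Stat5a, 0.01).

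Among 17 genes that ERK signalling is known to induce, including its feedback inhibitors, 1 was higher and 1 lower in KO against control. Of all genes 11.9% were called higher and 10.7% lower, and the list median was -0.04. Ccnd1, which encodes cyclin D1, was at 536 and 355 CPM in the controls, 1365, 2495 and 3017 CPM in KO1 and 1757, 1618, 998 and 1296 CPM in KO2 (log2 change 2.01, edgeR adjusted p = 0.0137). All KO libraries were above both controls. Spred1, an inhibitor of RAS activation, was lower (-0.42, adjusted p = 0.0821).

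Of the same 17 genes, 9 were called between the clones, 8 lower and 1 higher in KO1 than in KO2, beside 10.2% and 9.43% of all genes tested, and a list median of -0.93 beside -0.02 for all genes. The 8 lower genes were Dusp4, Dusp6, Epha2, Epha4, Etv1, Fosl1, Ier3 and Spry2, and the higher one was Spry1, all named after their values were seen. Fosl1, which encodes the AP-1 subunit FRA1, had the widest difference of them, with a log2 value of -2.13 (adjusted p = 0.0296, edgeR), at 52.0 CPM in KO1 and 228 CPM in KO2 on average against 95.8 CPM in the controls. KO2 replicate 3, at 67.1 CPM, lay within the KO1 range of 38.8 to 76.7 CPM, and the other KO2 libraries were at 196 to 359 CPM. Dusp6, an ERK phosphatase, was at 128 CPM in KO1 and 229 CPM in KO2 (-0.84, adjusted p = 0.0535). With the kind of count file as a term, 2 of the 78 genes of all 7 lists were called between the clones in place of 19, beside 3.15% of all genes.

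**Figure D4:**
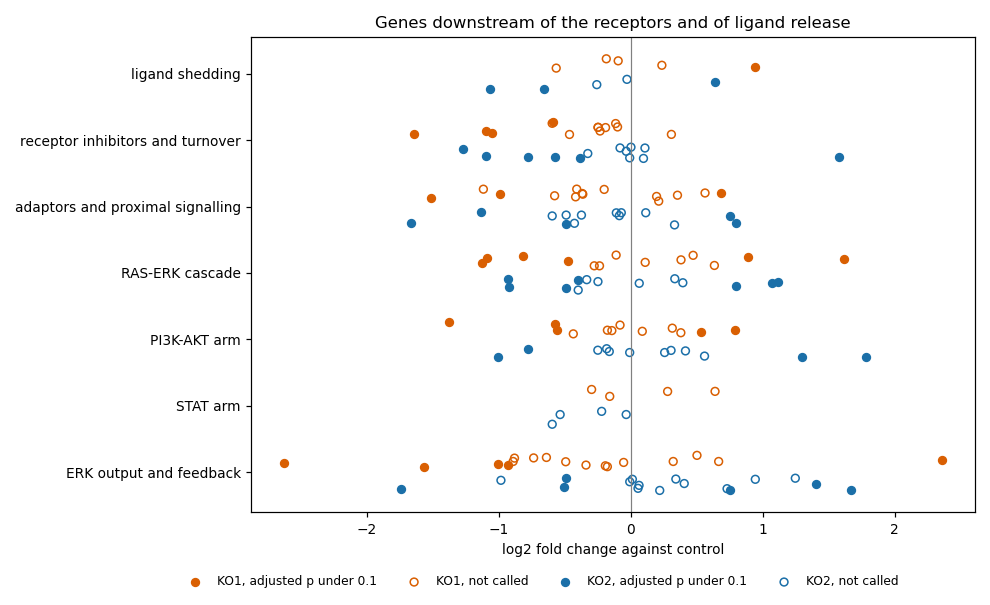
Log2 fold change against control for the 78 tested genes of the 7 lists, in KO1 and in KO2. Filled points passed an adjusted p of 0.1 by edgeR (24 in KO1, 31 in KO2), beside 31.6% and 31.4% of all genes tested. Open points did not pass, and vertical scatter within a list has no meaning.

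Genes with a pattern most like that of a member were sought over the 9 libraries among 12027 genes whose mean was 1 CPM or more, by Pearson's r of log2(CPM + 1). All points share libraries and depth, and r is a description. For Erbb2, the receptor with the lowest p in KO against control, these were Sergef (0.984), Lyrm9 (0.982) and Eps8l2 (0.981). For Epgn, the ligand with the lowest p, they were Prmt9 (0.937), Angel1 (0.932) and Nme4 (0.925). For Areg, chosen after its values were seen, they were Jmjd1c (0.987), Cnep1r1 (0.979) and Fmnl2 (0.978), and for Erbb3, chosen likewise, Tmem17 (0.981), Rab25 (0.974) and Mdm4 (0.972).

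ChIRP-seq, which pulls down chromatin with oligos against an RNA, gave a second readout at the same genes. The authors' 4 peak lists came from 4T1 cells with the total, even and odd oligo pools against MaTAR25 and from MMTV-Neu-NDL cells (named so by the study, while the labels give the genotype MMTV-PyMT) with the total pool. Replicates had been pooled, so no replicate error can be given. No list had a peak overlapping Areg or Epgn. These genes span only 8.83 and 7.75 kb, so that at the peak density of all protein-coding genes, given below, the absence says little. By nearest promoter, an intergenic peak was assigned to Areg in all 4 lists, 22779 bases from its start in the 4T1 total list (score 32.2). Epgn had 2 assigned peaks in the 4T1 total list and 3 each in the even and MMTV-Neu-NDL lists. Over all 10 genes the overlapping peaks numbered 40 (4T1 total), 43 (even), 42 (odd) and 36 (MMTV-Neu-NDL), of which 27, 32, 32 and 23 lay in Nrg1. Nrg1 spans 1069 kb, and its density of 2.52, 2.99, 2.99 and 2.15 peaks per 100 kb stood beside 3.34, 2.81, 2.62 and 3.09 over all protein-coding genes.

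Near the start sites, an intergenic peak upstream of Btc was in all 4 lists, in the 4T1 total list at chr5:91406201-91406825, -3519 bases from the start. It scored 289 there, 142 in the even, 42.2 in the odd and 203 in the MMTV-Neu-NDL list. An intergenic peak upstream of Hbegf, -2141 bases from the start in the 4T1 total list, scored 47.5 there, 71.7 (even) and 109 (MMTV-Neu-NDL), and was not in the odd list. A peak in an Nrg1 exon, -2720 bases from the nearest start in the 4T1 total list, was in all 4 lists, with scores of 47.8 to 81.0. A peak at -3376 bases from the start of Erbb2 (chr11:98408709-98409480, intergenic, score 359.5, rank 2053 of 76806) was in the 4T1 total list, and the other 3 lists had none assigned to Erbb2 at this place. A peak in the region annotated as the Egfr promoter was in the 4T1 total, odd and MMTV-Neu-NDL lists, with scores of 40.8, 145 and 34.0, and not in the even list. Of the protein-coding genes, 43.5% to 49.7% had a peak overlapping the gene body in a list. The share of all genes with a peak this near a start was not computed, so these peaks cannot be set against it.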

How the data were processed

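RNA-seq libraries (TruSeq v2, which does not mark strand, single-end) had been mapped by the authors to GRCm38 (mm10) with STAR, and reads per gene had been counted with HTSeq and GENCODE vM5. The deposited values are raw counts per gene, 25367211 to 61110585 per library. Counts not assigned to a gene (33.9% to 37.0%) were left out. Most of these were alignments that were not unique (24.1% to 27.5% of all counts). One KO2 file listed every gene 3 times, and 1 copy was used. Reads of Egfr, Erbb2, Erbb3, Ereg, Tgfa and Nrg1 cannot be told apart by strand from those of the genes that overlap them. The deposited ChIRP-seq peak lists hold a peak score per peak, which the authors computed with Bowtie2 and HOMER on pooled replicates.

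Counts were tested with edgeR 4.0.16 (TMM, filterByExpr, quasi-likelihood test, Benjamini-Hochberg over all 15023 genes tested, threshold 0.1). KO was fitted against control with 2 groups, and the clones with 3 groups. DESeq2 1.42.0, RLE size factors, no filter, at least 10 counts in every library, an adjusted p of 0.05, a replicate block, other groupings and each library left out were alternatives. A term for the kind of count file (line ends) was added after seeing the data. CPM per kb used merged exons of GENCODE vM21. The fit was tested on simulated data with 200 changed genes. Permutation tests were exact and two-sided, on log2(CPM + 1). Named pathway genes were up to 3 called genes per list and direction in KO against control, with a mean of at least 1 CPM. Members and lists were chosen with earlier results of these data known. Values of some called pathway genes are not reported here.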

Additional observations from a re-analysis of the deposited data

Results flagged for a closer look

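Of 64 groups tested for a library far from the others (the 4 KO2 libraries or all 7 KO libraries, for each member and each named gene), 9 were marked, where chance marks about 5% of groups. KO2 replicate 3 was far above the other KO2 libraries for Erbb3 (121 CPM), Btc (17.7 CPM) and Epgn (2.78 CPM), and for Btc and Epgn also above all other KO libraries. The count file of this library shares its line ends with Control replicate 1 and the KO1 libraries, and its targeted gene MaTAR25 had 9 counts, within the 1 to 11 of KO2. Tgfa in KO2 replicate 1 (236 CPM) was far above the other KO2 and the other KO libraries. Rhbdf2 in KO1 replicate 2 (109 CPM) was far above the other KO libraries, and Spred1 in KO2 replicate 1 (110 CPM) above the other KO2 libraries.

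The effects of the clones differed by the test of KO1 against KO2 for 4 members, beside 19.6% of all genes tested. The log2 differences of KO1 minus KO2 were -2.41 for Areg, -0.80 for Hbegf, -0.79 for Tgfa and 0.66 for Erbb2. Of the other named genes, Hras (0.50, adjusted p = 0.0937) and Akt1 (-0.50, adjusted p = 0.0851) differed by edgeR.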

How the results depend on the processing

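Areg kept its call in KO1 and between the clones in every setting tried, and in KO2 in all but the 2 that leave out a control. The number of members called in KO against control, 0, became 2 with the mean of the clone effects and 2 with the line-end term, and 0 to 1 with a library left out. Over all genes tested the share called went from 22.6% to 33.1%, 27.7% and 2.95% to 26.4% in these settings. In KO1, 2 became 1 at an adjusted p of 0.05, 4 with only the 2 groups compared, and 1 to 3 with a library left out. The share of all genes went from 31.6% to 22.2%, 54.1% and 9.46% to 37.6%. In KO2, 1 became 2 with the replicate block, 2 with the line-end term, and 0 to 5 with a library left out. There the share of all genes went from 31.4% to 24.6%, 29.3% and 8.72% to 35.7%. Between the clones, 4 became 1 at an adjusted p of 0.05, with the replicate block, with only the 2 groups compared and with the line-end term, and 1 to 7 with a library left out. Among all genes 19.6% became 10.9%, 11.6%, 13.6% and 3.15% in that order, and 5.79% to 27.5% with a library left out. Pathway genes called in KO against control went from 20 to 12 at 0.05, 11 with the block, 30 with the mean of the clone effects, 27 with the line-end term and 2 to 24 with a library left out, in KO1 from 24 to 49 with only the 2 groups compared and 8 to 31 with a library left out, in KO2 from 31 to a range of 9 to 34 with a library left out, and between the clones from 19 to 9 at 0.05, 11 with the block, 2 with the line-end term and 6 to 30 with a library left out. The shares of all genes given above stand beside the pathway counts as well, with 14.9% at 0.05 and 13% with the block in KO against control. The cause of these moves was not tested, apart from the smaller threshold and the libraries left out.

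Replicate numbers did not pair the libraries: deviations of the 7 same-numbered pairs from their group means correlated at -0.196 to 0.056. The replicate block called 2 members in KO2 (Erbb3 at -2.56 and Areg), beside 24.6% of all genes. It ended the calls of Hbegf, Tgfa and Erbb2 between the clones, where it called 11.6% of all genes. It changed no member call in KO or KO1.

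Some directions reversed, all of them for changes that were not called. In KO against control, Egfr (0.00) became -0.0078 without a filter, -0.016 with at least 10 counts, -0.20 with the replicate block, -0.016 with the mean of the clone effects and -0.35 with the line-end term, and ranged from -0.19 to 0.25 with a library left out. Hbegf (0.02) became -0.0056 without a filter, -0.095 with the mean of the clone effects and -0.084 with the line-end term, and ranged from -0.19 to 0.24. Tgfa ranged from -0.10 to 0.30 and Nrg1 from -0.083 to 0.30. With the line-end term Egfr in KO1 (0.50) became -0.12 and Erbb2 in KO2 0.0074. With a library left out Erbb3 in KO1 ranged from -0.29 to 0.19, Erbb2 in KO2 from -0.31 to 0.086, and Btc between the clones from -0.45 to 0.66.

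ChIRP peaks at members fell from 40, 43, 42 and 36 to 8, 5, 5 and 4 at a score of at least 100 (4T1 total, even and odd, MMTV-Neu-NDL). Ereg had 0 to 2 counts and Epgn 11 to 147 counts per library, so that counting error is largest for these members.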
